A study of Arabidopsis thaliana with 30 samples.

Results

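Gene expression was compared between 2-day-old pifq seedlings given 3 h of added far-red light (FR3) and seedlings of the same line harvested at the start of that treatment (WL0). The 6 arrays, 3 FR3 and 3 WL0, were chosen by their sample titles from the 30 arrays of the series. The line pifq is an Arabidopsis thaliana mutant lacking functional PIF1, PIF3, PIF4 and PIF5, and both groups carried these 4 mutations, so the comparison reads the light response left without them. Seeds were kept cold and dark for 5 days at 4 °C, and seedlings then grew without sucrose at 21 °C under white light (19 µmol/m2/s) for 2 days, at a ratio of red to far-red of 6.48. WL0 seedlings were taken at that point. FR3 seedlings stayed in white light of the same fluence rate to which far-red had been added, bringing the ratio to 0.006, for 3 h. The Columbia wild type (WT) under the same treatments, and pifq seedlings after 1 h (FR1) or 24 h (FR24) of far-red or after 24 h more of white light (WL24), are set beside them where a result needs it, each with 3 arrays. Whole seedlings were used, pifq is represented by 1 line, and the 3 replicates of a group were grown and extracted separately, per the series design text. FR3 seedlings were 3 h older than WL0 seedlings, and no white-light group of 3 h is analysed here, so the 3 h that passed and the added far-red cannot be told apart.

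Plants read the red to far-red ratio with phytochromes, photoreceptors that far-red light returns to the inactive form. PIF proteins are basic helix-loop-helix transcription factors that active phytochrome removes, and in shade they accumulate and switch on genes for elongation and auxin response. This shade avoidance response also touches light-dependent pigments, the chloroplast and the clock. PIF7 and other members of the family are intact in pifq, as are the phytochromes.

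The arrays were 1-colour Affymetrix arrays with log2 expression values made by RMA, called log2 levels below. Differences are FR3 minus WL0 on that log2 scale with the standard error (SE) of a limma fit over all 30 arrays. A probe set was called at a Benjamini-Hochberg adjusted p under 0.05 over the 22746 probe sets tested, and "rose" and "fell" are used of called differences. Array medians lay between 5.55 and 5.64. The 3 arrays of a group correlated at 0.9967 to 0.9983 and arrays of different groups at 0.9837 to 0.9896. The annotation pairs no single probe set with any of the 4 mutated PIF genes (0 of 4), so their levels could not serve to check the genotype labels. FR3 replicate 1 lay farther from the WL0 mean than the other FR3 arrays for 186 of the 237 probe sets that rose at least 2-fold (78.5%) and for 150 of the 176 that fell at least 2-fold (85.2%). Its median difference over these sets was 1.47 and -1.39, against 1.22 to 1.28 and -1.10 to -1.13 in the other 2 arrays.

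After 3 h of far-red light, 6797 of the 22746 probe sets were called in pifq (29.9%), 3312 higher (14.6%) and 3485 lower (15.3%). Without FR3 replicate 1 the count was 5483. At least 2-fold changes were far fewer, 237 rises (1.04%) and 176 falls (0.774%), or 212 and 133 without FR3 replicate 1. Most changes were modest. The median size of a called difference was 0.42 on the log2 scale, and the median over all probe sets was 0.02. The 3 FR3 arrays lay wholly above or below the 3 WL0 arrays for 9561 probe sets (42.0%), above for 21.8% and below for 20.2%, among them all 237 rises and all 176 falls of at least 2-fold. The share called climbed with the level of the probe set, from 3.18% in the lowest 25% of mean levels to 54.6% in the highest 25%. In whole seedlings, fewer cells of a type and less RNA per cell cannot be told apart. Of the 2-fold changes, 109 rises and 84 falls belonged to exactly 1 locus, and 21 and 23 of those had a gene symbol, so most of the strongest changes stay without a name here.

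**Figure D1:**
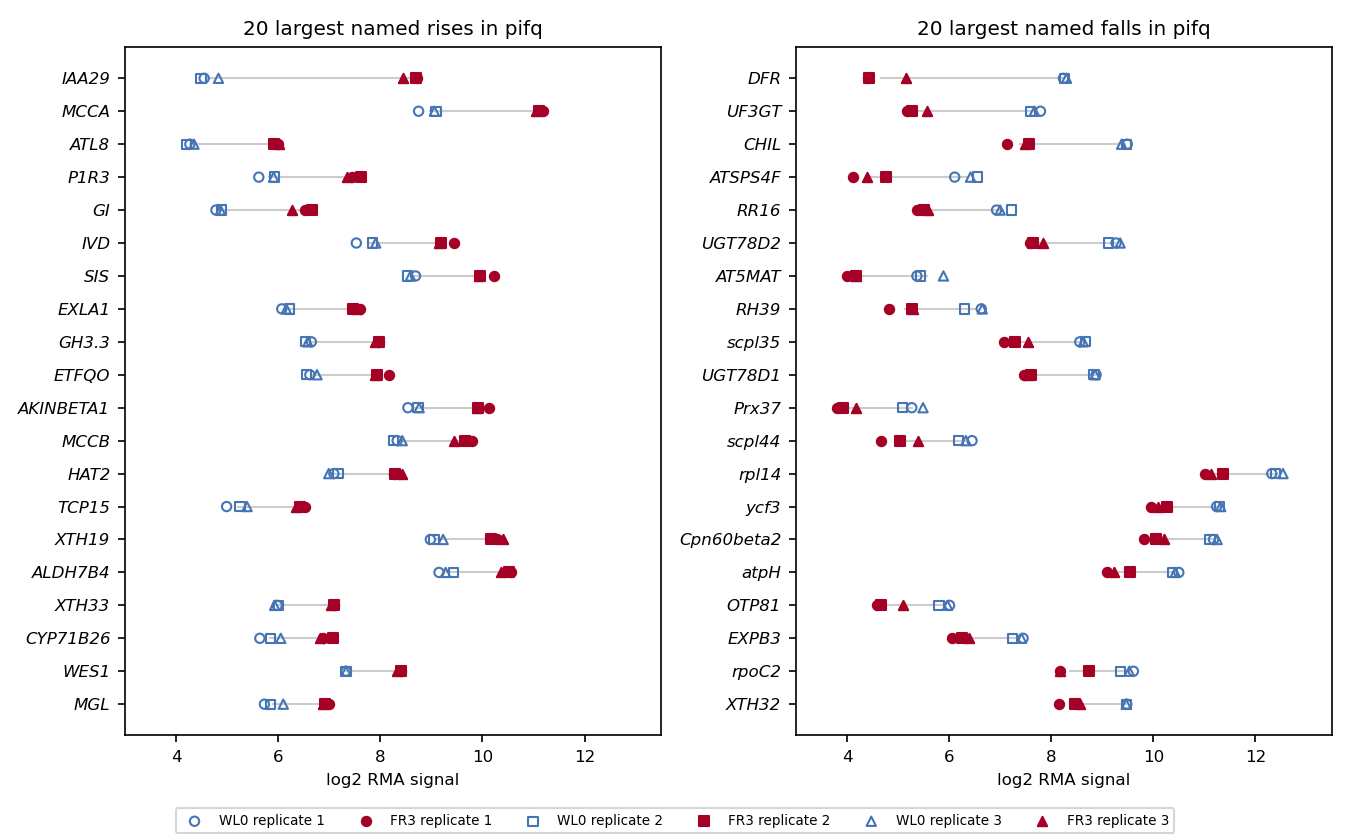
Log2 RMA level (horizontal axis) of the 20 largest named rises and 20 largest named falls in pifq, with each of the 3 WL0 arrays (open blue) and 3 FR3 arrays (filled red) as a point, the marker shape giving the replicate and the grey line joining group means. The groups do not overlap for any of the 40 genes, which the choice of genes required, and IAA29 and DFR span the widest gaps, 3.99 and 3.60 on the log2 scale.

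The strongest named response was an auxin gene. IAA29 (AT4G32280), an Aux/IAA repressor of auxin-dependent transcription, had log2 levels of 4.55, 4.49 and 4.83 at WL0 and of 8.71, 8.69 and 8.45 at FR3. It rose by 3.99 ± 0.13 (15.9-fold, adjusted p = 2.2e-20), the second largest rise of all probe sets. HAT2 (AT5G47370), a homeodomain-leucine zipper transcription factor induced in shade, stood at 7.09, 7.17 and 6.99 before and 8.26, 8.29 and 8.43 after, a rise of 1.25 ± 0.09. P1R3 (AT3G29370) went from 5.62, 5.93 and 5.91 to 7.44, 7.63 and 7.35, a rise of 1.65 ± 0.14. In each of these genes the groups were far apart compared with the spread of 3 arrays. The related P1R1 (AT5G57780) rose by 0.97 ± 0.11. FHL (AT5G02200), whose product carries phytochrome A into the nucleus, stood at 3.61, 3.66 and 3.36 at WL0 and 3.92, 3.78 and 4.06 at FR3. Its small rise of 0.37 ± 0.12 was not called without WL0 replicate 3 (0.29, adjusted p = 0.127) or FR3 replicate 3 (0.30, adjusted p = 0.0992). Altogether 5 of 6 measured shade-response genes rose and 0 fell, with a median difference of 1.11, where 14.6% of all probe sets rose. The remaining gene, BIM1, a helix-loop-helix gene of brassinosteroid signalling, differed by 0.02 ± 0.10.

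Auxin-response genes moved upward where they moved. GH3.3 (AT2G23170) and WES1 (AT4G27260), enzymes that join auxin to amino acids and so lower the free hormone, rose by 1.36 ± 0.12 and 1.05 ± 0.08. WES1 varied little, at 7.33 on each of the 3 WL0 arrays and 8.40, 8.41 and 8.33 at FR3. The Aux/IAA genes IAA34 (AT1G15050) and IAA20 (AT2G46990) rose by 0.78 ± 0.14 and 0.45 ± 0.15, but IAA20 was not called without FR3 replicate 2 (0.33, adjusted p = 0.132). In the list of Aux/IAA and auxin-response genes, 5 of 13 rose, 0 fell and 8 were not called, with a median of 0.21. The share of calls was near the 29.9% of all probe sets, of which 14.6% rose. IAA29, one of the rises, is also counted among the shade-response genes. Among the 8, GH3.17, another conjugating enzyme gene, differed by 0.21 ± 0.09 (adjusted p = 0.0714) and IAA18 by 0.11 ± 0.08. Of the 4 measured auxin synthesis and transport genes, all from the YUC family, only YUC2 (AT4G13260), a flavin monooxygenase of the main synthesis route, rose, by 0.67 ± 0.13. YUC6 and YUC11 differed by -0.12 ± 0.09 and 0.09 ± 0.08.

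Wall genes split in both directions. Of 17 expansin and xyloglucan-modifying genes outside root hairs, 7 rose, 6 fell and 4 were not called, and the median difference was 0.06. Over all probe sets 14.6% rose and 15.3% fell. The rises were led by EXLA1 (AT3G45970), an expansin-like gene, from 6.07, 6.22 and 6.16 to 7.61, 7.46 and 7.55 (1.39 ± 0.11). XTH19 (AT4G30290) and XTH33 (AT1G10550), which encode enzymes that cut and rejoin xyloglucan chains, rose by 1.20 ± 0.15 and 1.11 ± 0.12, and EXLA2 by 0.91 ± 0.11. Among the falls, the beta-expansin gene EXPB3 (AT4G28250) dropped from 7.45, 7.24 and 7.42 to 6.05, 6.25 and 6.40 (-1.14 ± 0.12), and the alpha-expansin gene EXPA9 (AT5G02260) by 0.75 ± 0.10. XTH32 (AT2G36870), outside that list, fell by 1.08 ± 0.08. EXGT-A3 and XTH18, the uncalled members of highest level, differed by 0.06 ± 0.07 and 0.15 ± 0.15. The 3 measured root hair wall genes all fell. EXPA7 (AT1G12560) fell by 0.78 ± 0.09, EXPA18 (AT1G62980) by 0.70 ± 0.10 and XTH26 (AT4G28850) by 0.63 ± 0.17. These are also the 3 measured root hair markers of 11 listed, and their mean level was 7.78 to 8.08 on the WL0 arrays and 7.11 to 7.40 on the FR3 arrays. The part of root hair number in these falls was not tested, and 0 of 9 other root markers had a probe set of their own. After 24 h more of white light EXPA7, EXPA18 and XTH26 were also called lower than at WL0 (-1.72, -1.60 and -1.93). That comparison shares the WL0 arrays. At 24 h they were called higher in far-red than in white light (0.29, 0.38 and 0.52), calls that each ended under some alternative fits. The part of age in the 3 h falls was not tested.

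Genes for the mitochondrial breakdown of leucine rose together. MCCA (AT1G03090), the biotin-carrying subunit of 3-methylcrotonyl-CoA carboxylase, stood at 8.75, 9.09 and 9.06 at WL0 and 11.18, 11.11 and 11.04 at FR3, a 4.41-fold rise (2.14 ± 0.10, adjusted p = 1.86e-16). MCCB (AT4G34030), the partner subunit, rose by 1.29 ± 0.10. IVD (AT3G45300), isovaleryl-CoA dehydrogenase, which acts just before them, went from 7.53, 7.85 and 7.91 to 9.45, 9.19 and 9.15 (1.50 ± 0.11). ETFQO (AT2G43400), which passes the electrons from such dehydrogenases to the respiratory chain, rose by 1.35 ± 0.10. These genes are known to be switched on when sugar runs short. Others of the same list rose too: AKINBETA1 (AT5G21170), a regulatory subunit of the energy-sensing SnRK1 kinase, by 1.29 ± 0.11, and ATL8 (AT1G76410), a RING ubiquitin ligase gene, by 1.70 ± 0.15. MGL (AT1G64660), methionine gamma-lyase, which breaks down methionine, rose by 1.03 ± 0.10. In the list of branched-chain amino acid breakdown and starvation genes, 7 of 9 rose, where 14.6% of all probe sets did. The list median was 1.29, 1 gene fell and 1 was not called. The fall was that of EXO (-0.45 ± 0.09), named after its value was seen, against 0.22 in the wild type. D2HGDH, 2-hydroxyglutarate dehydrogenase, which feeds electrons to the same acceptor, was the uncalled gene at 0.19 ± 0.09 (adjusted p = 0.134). ALDH7B4 (AT1G54100), an aldehyde dehydrogenase gene outside the list, rose by 1.19 ± 0.09.

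Flavonoid genes gave the deepest named falls. DFR (AT5G42800), the dihydroflavonol reductase of the anthocyanin branch, stood at 8.24, 8.26 and 8.30 at WL0 and fell to 4.41, 4.43 and 5.15 (-3.60 ± 0.19, 12.1-fold lower). UF3GT (AT5G54060) and AT5MAT (AT3G29590), which decorate anthocyanins with sugar and with malonate, fell by 2.35 ± 0.12 and by 1.44 ± 0.12. CHIL (AT5G05270), a chalcone isomerase-like protein that aids flux into the pathway, fell from 9.49, 9.47 and 9.38 to 7.14, 7.56 and 7.49. UGT78D2 (AT5G17050) and UGT78D1 (AT1G30530), flavonol and anthocyanin glycosyltransferases, fell by 1.56 ± 0.08 and by 1.32 ± 0.08. All 6 measured genes of the list fell, with a median of -1.81, where 15.3% of all probe sets fell. The list mean lay between 8.12 and 8.24 on the WL0 arrays and between 5.96 and 6.29 on the FR3 arrays, and the groups did not overlap. The same 6 genes were also lower after 24 h more of white light than at WL0, DFR by 4.59 ± 0.19 and CHIL by 1.53 ± 0.09, in a comparison that shares the WL0 arrays.

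Of 3 measured clock genes 2 rose, where 14.6% of all probe sets did. Few genes of the cytokinin, gibberellin and ethylene lists were measured. GI (AT1G22770), an evening gene of the clock that also promotes flowering, had levels of 4.78, 4.89 and 4.87 at WL0 and 6.52, 6.67 and 6.28 at FR3 (1.64 ± 0.13). CCL (AT3G26740) rose by 0.99 ± 0.10, and COR27, the third measured clock gene, differed by -0.26 ± 0.14 (adjusted p = 0.168). RR16 (AT2G40670), a type-A response regulator that damps cytokinin signalling, fell from a range of 6.93 to 7.22 at WL0 to 5.37, 5.50 and 5.59 at FR3 (-1.57 ± 0.17). ARR15, a second gene of that type, differed by -0.11 ± 0.08. HYH (AT3G17609), the bZIP partner of HY5 in light-driven growth, fell by 0.62 ± 0.09. RTE1 (AT2G26070), which supports the ethylene receptor ETR1, rose by 0.72 ± 0.08, while EIN3, the main transcription factor of ethylene response, differed by 0.14 ± 0.08. Of 4 gibberellin genes only SLY1, the F-box protein that removes DELLA repressors, rose (0.30 ± 0.08), and the receptor genes GID1A and GID1C differed by -0.17 ± 0.08 and 0.15 ± 0.12. TCP15 (AT1G69690), a growth-linked TCP transcription factor, rose by 1.22 ± 0.15.

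**Figure D2:**
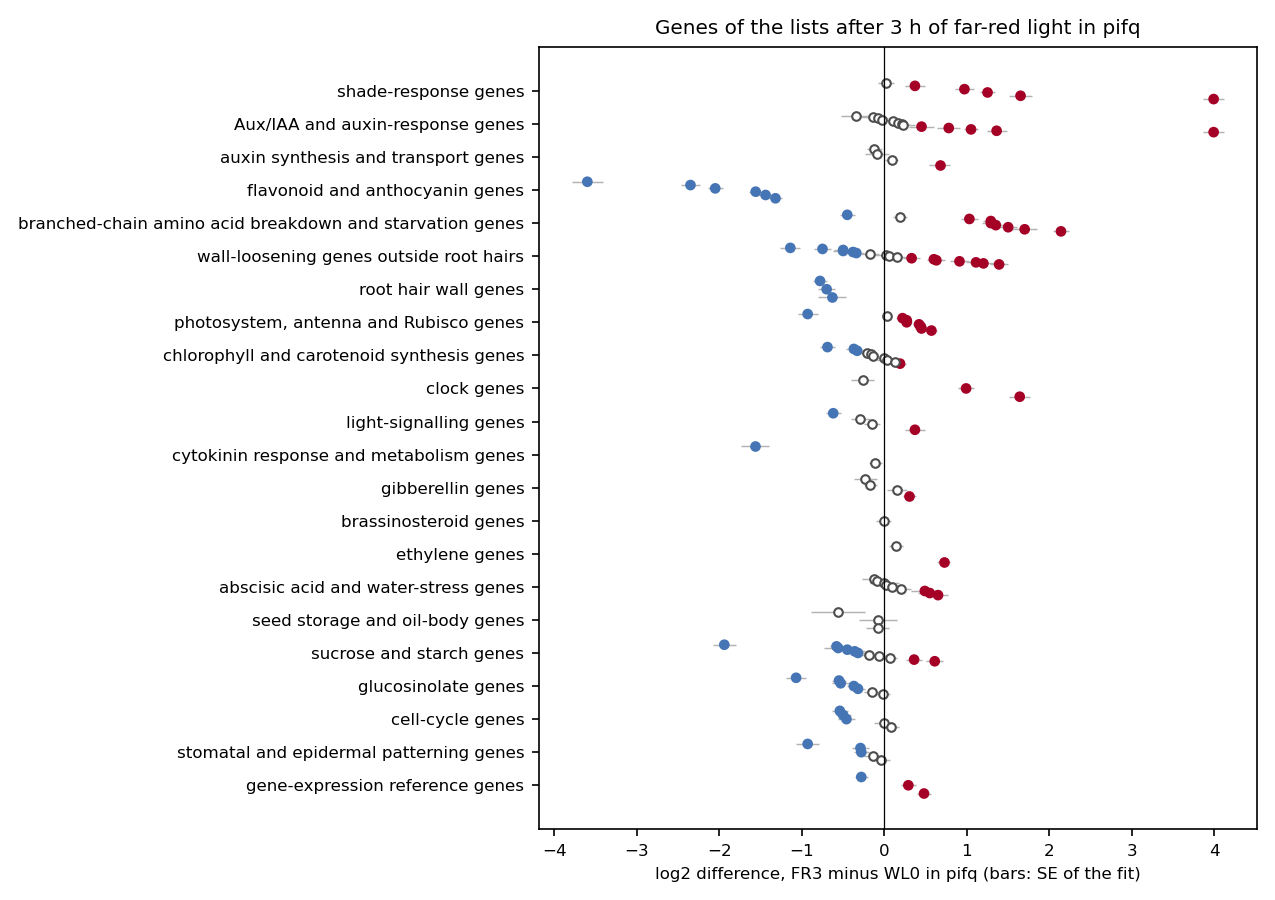
Log2 difference (FR3 minus WL0 in pifq, horizontal axis) of each measured gene in 22 gene lists, with bars for the SE of the limma fit, filled red or blue where called higher or lower and open where not called. The 6 flavonoid genes lie between -3.60 and -1.32, while the 17 wall-loosening genes run from -1.14 to 1.39.

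Of the called genes, most nuclear photosystem genes rose and most plastid-genome genes fell, and no difference between these sets was tested. Of 9 nuclear photosystem, antenna and Rubisco genes, 7 rose, 1 fell and 1 was not called, with a median of 0.27. All 9 lay in the highest 25% of levels, where 1633 of 5687 probe sets rose. LHCB4.2 (AT3G08940), a minor antenna protein of photosystem II, rose by 0.57 ± 0.07, PSBW and PSAN, small subunits of photosystems II and I, by 0.45 ± 0.08 and 0.44 ± 0.07, and PSB27, an assembly factor of photosystem II, by 0.42 ± 0.07. LHCB4.3 (AT2G40100), of the same antenna family, fell from 9.58, 9.66 and 9.59 to 8.52, 8.73 and 8.78 (-0.93 ± 0.12). RCA, Rubisco activase, differed by 0.03 ± 0.06. The 5 measured green-tissue markers of 10 listed had a mean level of 12.94 to 12.98 at WL0 and 13.25 to 13.36 at FR3. For pigment synthesis, 3 of 10 genes fell and 1 rose, a share of calls near the 29.9% of all probe sets. GSA1 (AT5G63570), an early enzyme of the chlorophyll route, fell by 0.69 ± 0.09 and CHLI2, a magnesium chelatase subunit, by 0.33 ± 0.09. The fall of PORB (-0.37 ± 0.10), the light-requiring protochlorophyllide reductase, was not called without FR3 replicate 1 (-0.28, adjusted p = 0.0569). The rise of CHLM (0.19 ± 0.07), a methyltransferase of the same route, was lost when any of 5 arrays (all but WL0 replicate 2) was left out singly, with adjusted p = 0.0507 to 0.11.

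Of 69 plastid-genome genes, 37 fell, 1 rose and 31 were not called, with a median of -0.35, a family chosen after the table was seen. Over all probe sets 15.3% fell and 14.6% rose, and most of these genes lie at high levels, where calls were most frequent (54.6% in the highest 25%). The median level of the 69 was 10.50, 10.53 and 10.63 on the WL0 arrays and 9.95, 10.27 and 10.10 on the FR3 arrays, which do not overlap. Among genes of the plastid's own expression machinery, 11 of 15 ribosomal protein genes and 3 of 4 RNA polymerase genes fell. The ribosomal protein gene rpl14 went from 12.32, 12.39 and 12.54 to 11.02, 11.36 and 11.13 (-1.25 ± 0.13), and the polymerase subunit gene rpoC2 fell by 1.13 ± 0.16. All 6 ATP synthase genes fell, atpH by 1.14 ± 0.17, as did 4 of 5 photosystem I genes and ycf3, a photosystem I assembly gene, by 1.18 ± 0.18. Of 8 genes outside the named classes, ycf3 among them, 7 fell. By contrast 1 of 15 photosystem II genes fell and 1 rose, psbE by 0.21 ± 0.07. That rise was lost when WL0 replicate 1 or 3, or FR3 replicate 1 or 2, was left out (adjusted p = 0.0502 to 0.08). Just 2 of 10 NDH complex genes fell, and no difference between classes was tested. Of the nuclear genes named for the size of their fall, 3 encode plastid proteins. RH39 (AT4G09730), an RNA helicase of plastid ribosomal RNA, fell by 1.40 ± 0.14, OTP81 (AT2G29760), an RNA-editing factor of a family (OTP) in which 3 of 8 fell and the median was 0.05, by 1.14 ± 0.16, and Cpn60beta2 (AT3G13470), a plastid chaperonin subunit, by 1.15 ± 0.10. Plastid genes lie in shared transcripts, so the 69 are not independent of each other.

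**Figure D3:**
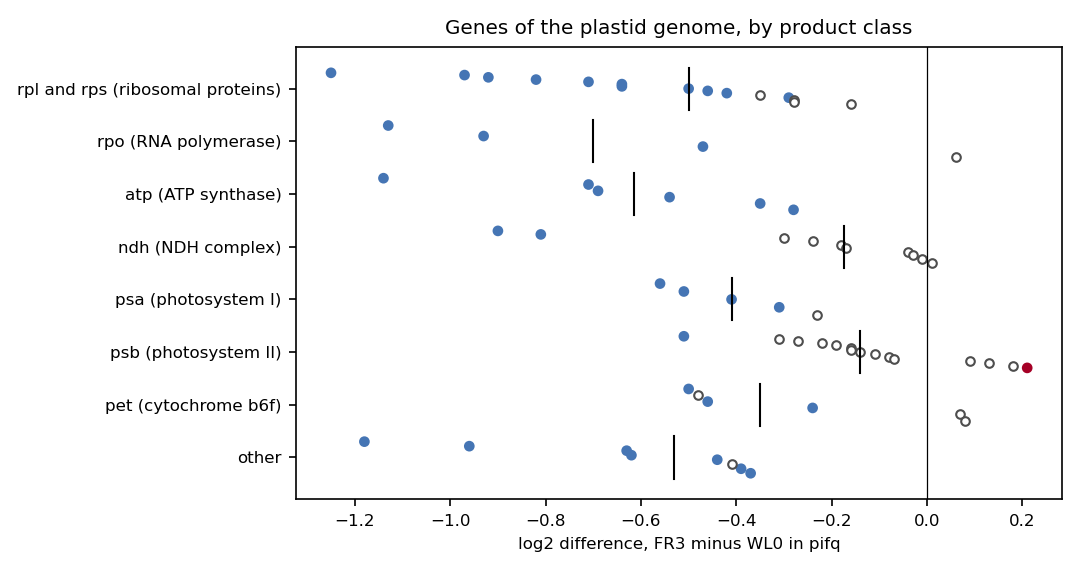
Log2 difference (FR3 minus WL0 in pifq, horizontal axis) of the 69 plastid-genome genes by product class, filled blue where called lower, red where called higher and open where not called, with a black bar at each class median. Ribosomal protein, RNA polymerase and ATP synthase genes have medians of -0.50, -0.70 and -0.61, against -0.14 for photosystem II.

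Among the called carbon and defence genes most fell, where 15.3% of all probe sets fell and 14.6% rose. ATSPS4F (AT4G10120), a sucrose phosphate synthase, dropped from 6.11, 6.56 and 6.42 to 4.11, 4.76 and 4.39 (-1.94 ± 0.14). The sugar transporter gene SWEET1 fell by 0.58 ± 0.08 and APL3, a subunit of the enzyme that starts starch synthesis, by 0.45 ± 0.12, whereas the vacuolar sugar transporter gene SWEET16 rose by 0.61 ± 0.10. In all, 6 of 11 sucrose and starch genes fell, 2 rose and 3 were not called, with a median of -0.32. The falls of SAG29 (-0.56 ± 0.17) and SWEET17 (-0.36 ± 0.12), of the same transporter family, were not called without FR3 replicate 2 (adjusted p = 0.0937 and 0.084), and that of SWEET17 also without WL0 replicate 3 (0.103) or FR3 replicate 3 (0.165). Among 7 glucosinolate genes 5 fell and 0 rose, with a median of -0.37. The transporter gene GTR1 (AT3G47960) fell by 1.07 ± 0.12 and its relative GTR2 by 0.53 ± 0.11. GSTU20, a glutathione transferase gene, fell by 0.55 ± 0.09 and PYK10, a beta-glucosidase that activates these defence compounds, by 0.37 ± 0.08. The fall of UGT74B1 (-0.32 ± 0.09), a glucosyltransferase of their synthesis, ended without WL0 replicate 2 (adjusted p = 0.0519) or FR3 replicate 1 (0.0767).

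Of 5 cell-cycle genes, the Aurora kinase genes AUR1 and AUR2 and the replication gene PRL fell by 0.54 ± 0.10, by 0.50 ± 0.09 and by 0.46 ± 0.10, and 0 rose. Over all probe sets 15.3% fell. TRY (AT5G53200), a MYB repressor of trichome fate and the measured trichome marker, fell by 0.93 ± 0.14. MUTE and STOMAGEN, which promote stomata, were lower by small amounts (-0.29 ± 0.10 and -0.28 ± 0.09). The MUTE call was lost without WL0 replicate 1, FR3 replicate 2 or FR3 replicate 3 (adjusted p up to 0.137), and that of STOMAGEN without WL0 replicate 2, FR3 replicate 1 or FR3 replicate 2 (up to 0.0973). SPCH and FMA, the other stomatal regulators measured, differed by -0.14 ± 0.11 and -0.04 ± 0.11. The 4 measured guard cell and stomatal markers of 11 had a mean level of 5.94 to 6.05 at WL0 and 5.80 to 5.84 at FR3.

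Among 9 genes of abscisic acid and water stress, 3 rose and 0 fell, a share of calls near the 29.9% of all probe sets. LTI30, a dehydrin gene, rose by 0.65 ± 0.12 and the linker histone gene HIS1-3 by 0.55 ± 0.14. The rise of OSM34 (0.49 ± 0.17), an osmotin-like gene, was not called without WL0 replicate 1 (adjusted p = 0.0517), WL0 replicate 3 (0.151) or FR3 replicate 1 (0.186). After 24 h more of white light LTI30, HIS1-3 and OSM34 were also higher than at WL0, by 0.78, 3.95 and 3.07. That comparison shares the WL0 arrays. At 24 h none of these genes was called between far-red and white light (-0.22, -0.16 and -0.16). The part of age in the 3 h rises was not tested. The late embryogenesis abundant genes LEA4-5 and LEA18 differed by 0.02 ± 0.13 and -0.13 ± 0.14. The 2 measured seed markers of 15, PAP85 and M17, were not called, and M17 varied more among the WL0 arrays (7.23, 7.83 and 8.62) than between groups. Genes often used as references for expression assays were not level: TUB6, a tubulin gene, rose by 0.48 ± 0.09, PEX4 was higher by 0.29 ± 0.09 and GAPC2 lower by 0.28 ± 0.08. Without FR3 replicate 1 the PEX4 and GAPC2 calls ended (adjusted p = 0.0617 and 0.0698), as the PEX4 call did without WL0 replicate 3 (0.0722).

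Several of the largest changes belonged to loci without a symbol in the annotation, and no role is given for them. AT5G02540 showed the largest rise of all probe sets, from 4.28, 4.40 and 4.38 to 9.61, 8.86 and 9.03 (4.81 ± 0.17, 28.1-fold). AT4G37220, AT3G62950, AT5G12050 and AT5G62280 rose by 2.13 to 2.30. The deepest fall among such loci was that of AT2G23910, from 7.49, 7.71 and 7.62 to 4.55, 4.85 and 5.00 (-2.80 ± 0.18). AT5G62210, AT1G06000, AT4G14090 and AT3G44450 fell by 2.05 to 2.26. None of these 10 loci had overlapping groups, as held for all changes of at least 2-fold.

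The time at which genes moved differed among the named genes. Between 1 h and 3 h of far-red light 1683 probe sets rose in pifq (7.40%) and 1721 fell (7.57%), 3404 in all, and between WL0 and 1 h 1325 (5.83%). The shade-response genes did not share a time course. HAT2 was 1.80 ± 0.09 above WL0 at 1 h and then fell by 0.55 ± 0.09 by 3 h. IAA29 was 3.34 ± 0.13 above WL0 at 1 h and gained a further 0.66 ± 0.13. P1R1 differed from WL0 by 0.05 ± 0.11 at 1 h and rose by 0.92 ± 0.11 afterwards, and FHL differed by 0.02 ± 0.12 at 1 h and by 0.36 ± 0.12 from 1 h to 3 h. For the wall gene EXLA1 the 1 h difference was 1.27 ± 0.11 and for the auxin gene WES1 0.86 ± 0.08, and their later changes were not called (0.12 ± 0.11 and 0.18 ± 0.08). AT3G44450 behaved likewise downward, at -2.13 ± 0.14 after 1 h and 0.08 ± 0.14 from 1 h to 3 h. A second set moved late. GI differed by -0.06 ± 0.13 at 1 h and rose by 1.71 ± 0.13 from 1 h to 3 h, CCL by 1.12 ± 0.10 and CYP71B26, a cytochrome P450 gene, by 1.26 ± 0.12. DFR differed by -0.58 ± 0.19 at 1 h (adjusted p = 0.071) and fell by 3.03 ± 0.19 afterwards, and RR16 fell by 1.13 ± 0.17 in that interval. The change from 1 h to 3 h shares its FR3 arrays with the 3 h comparison and the 1 h change shares its WL0 arrays. Both changes also share the FR1 arrays with opposite sign, so an error in those arrays would move them in opposite directions. The values therefore stand side by side only. The count of 3404 dropped to 2031 without FR3 replicate 1 and that of 1325 to 845 without FR1 replicate 2.

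After 24 h the control is a white-light group of the same age, and this comparison shares no array with FR3 against WL0. It called 3377 probe sets in pifq (14.8%), 7.60% of those tested higher and 7.25% lower. Of the 237 probe sets that rose at least 2-fold at 3 h, 104 (43.9%) were also called higher at 24 h and 22 (9.28%) lower. Of the 176 that fell at least 2-fold, 22 (12.5%) were also called lower and 43 (24.4%) higher. With only the 6 arrays of the 24 h comparison in the fit, which called 1685, the counts were 96 and 19 for the rises and 19 and 36 for the falls. Without WL24 replicate 2, which left 2212 calls, they were 92 and 18, and 18 and 39. IAA29 (3.03 ± 0.13), GI (2.50 ± 0.13) and HAT2 (0.61 ± 0.09) were still higher in far-red at 24 h, and RR16 (-1.50 ± 0.17) still lower. ATSPS4F, lower at 3 h, was higher at 24 h (0.68 ± 0.14), as were LHCB4.3 (0.88 ± 0.12) and CHIL (0.40 ± 0.09). GH3.3 and DFR were not called at 24 h (-0.06 ± 0.12 and 0.55 ± 0.19, with adjusted p = 0.0502 for DFR). The DFR mean was 3.68 at WL24 against 8.27 at WL0, and whether this low level limited a fall in far-red was not tested. For GH3.3 these means were 4.40 and 6.59. Over all calls, 514 of the 3312 rises (15.5%, and 29.7% of the 24 h rises) and 361 of the 3485 falls (10.4%, and 21.9% of the 24 h falls) went the same way, while 255 of the rises (7.70%) and 414 of the falls (11.9%) were called the opposite way.

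**Figure D4:**
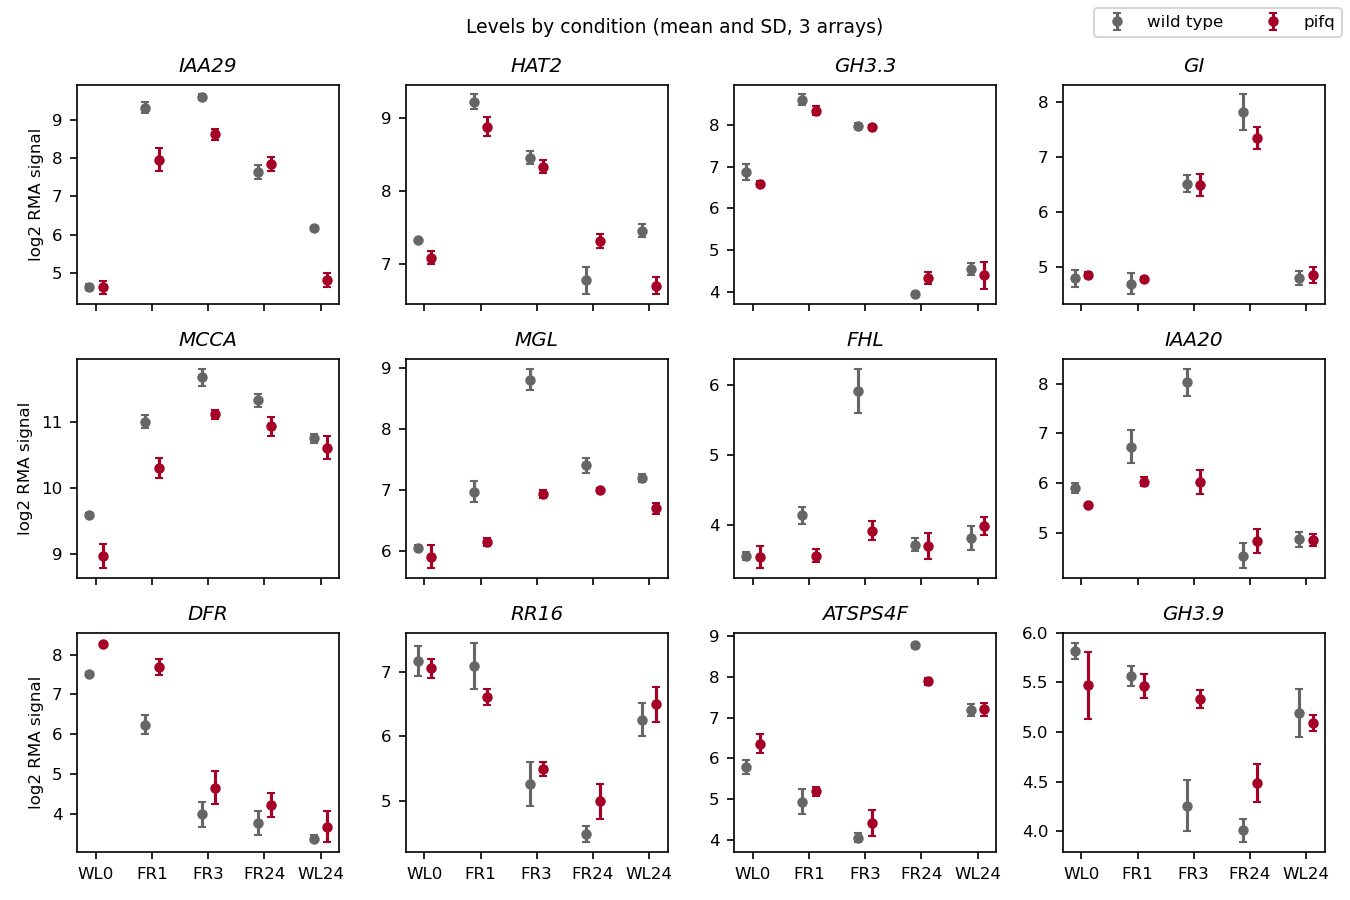
Log2 RMA level (vertical axis, mean and SD of 3 arrays) of 12 genes in the 5 conditions, in the wild type (grey) and pifq (red). In pifq IAA29 is at 4.62 at WL0, 7.96 at FR1 and 8.62 at FR3, GI differs by -0.06 between WL0 and FR1, and FHL reaches 3.92 at FR3 in pifq against 5.92 in the wild type.

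Seedlings kept in white light for 24 h more, and so older by that time, differed from WL0 in 11216 probe sets (49.3%), in a comparison that shares the WL0 arrays. MCCA, IVD and ATL8 were higher at WL24 by 1.64 ± 0.10, 1.30 ± 0.11 and 1.56 ± 0.15, and all 6 flavonoid genes were lower. For IAA29, P1R3 and GI no such change was called (0.19 ± 0.13, 0.09 ± 0.14 and -0.00 ± 0.13). WL0 and WL24 lie 24 h apart, so a daily rhythm, as of the clock gene GI, would not show between them. How these genes move over 3 h of white light was not tested. GH3.3, XTH19 and XTH33 went the other way in white light, by -2.19 ± 0.12, -1.42 ± 0.15 and -1.10 ± 0.12.

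The response of pifq was set against that of the wild type by the difference between the FR3 minus WL0 changes of each line, and no array is shared. This difference was called for 727 probe sets (3.20%), 356 positive (1.57%) and 371 negative (1.63%). The 2 responses were alike in direction. Of the 3312 probe sets that rose in pifq 80.9% also rose in the wild type and 15 fell, and of the 3485 that fell 82.8% also fell and 18 rose, where 18.1% and 18.0% of all probe sets rose and fell. For 235 of the 237 rises and 175 of the 176 falls of at least 2-fold, the wild type was called the same way. Across those 413 probe sets the 2 responses correlated at r = 0.96, and the median ratio of the wild-type change to the pifq change was 1.10, a description over probe sets chosen for their size in pifq. Over all 22746 probe sets r was 0.86 (Spearman 0.77). The median ratio over them, 0.90, includes every probe set with a pifq change near 0, so it does not compare the size of the responses. The wild type had 8217 calls, 887 of them at least 2-fold, against 6797 and 413 in pifq.

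Where the lines differed, the wild type had usually moved more, in 659 of the 727 (90.6%). The same share over all probe sets was not counted, and the wild type had more 2-fold calls in all (887 against 413). The 90.6% is therefore no trait shown for the called differences alone. Of 449 probe sets (1.97%) that rose at least 2-fold in the wild type, 195 (43.4%) had a called difference towards less change in pifq and 2 towards more. Choosing on the wild-type change tilts this count, and among the 237 rises of at least 2-fold in pifq 36 had a negative and 7 a positive difference. Among the 438 falls of that size (1.93%), 134 (30.6%) changed less in pifq and 0 more, while of the 176 falls of that size in pifq 26 had a positive and 1 a negative difference. FHL rose by 2.37 ± 0.12 in the wild type and by 0.37 ± 0.12 in pifq, a difference of -1.99 ± 0.17 (adjusted p = 2.01e-09). MGL rose by 2.75 ± 0.10 and 1.03 ± 0.10, IAA20 by 2.13 ± 0.15 and 0.45 ± 0.15, and the transcription factor gene WRKY22 by 2.20 ± 0.12 and 0.95 ± 0.12. The wild-type rise of LEA4-5 and LEA18, by 1.69 ± 0.13 and 1.39 ± 0.14, had no called counterpart in pifq, and the differences were -1.67 ± 0.19 and -1.52 ± 0.20. These genes started at different levels in the lines: LEA4-5 at 9.41 ± 0.14 in pifq and 7.02 ± 0.25 in the wild type (SD, n = 3), and LEA18 at 9.29 ± 0.24 and 6.82 ± 0.25. The wild-type means at FR3, 8.71 and 8.20, stayed below the pifq means at WL0. GH3.9, a relative of GH3.3, fell by 1.56 ± 0.14 in the wild type and differed by -0.14 ± 0.14 in pifq, a difference of 1.42 ± 0.19. EXPA9 was called in opposite directions, higher by 0.40 ± 0.10 in the wild type and lower by 0.75 ± 0.10 in pifq. IAA29 rose less in pifq, with a difference of -0.96 ± 0.18, although its rise there was still 15.9-fold. For HAT2, GH3.3, MCCA and GI the difference was not called (0.12 ± 0.13, 0.28 ± 0.16, 0.06 ± 0.14 and -0.07 ± 0.18), nor was it for any of the 6 flavonoid or the 69 plastid-genome genes. With 1 line per genotype, the mutations cannot be told apart from other differences between the lines, and the number of arrays limits what these tests can call.

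**Figure D5:**
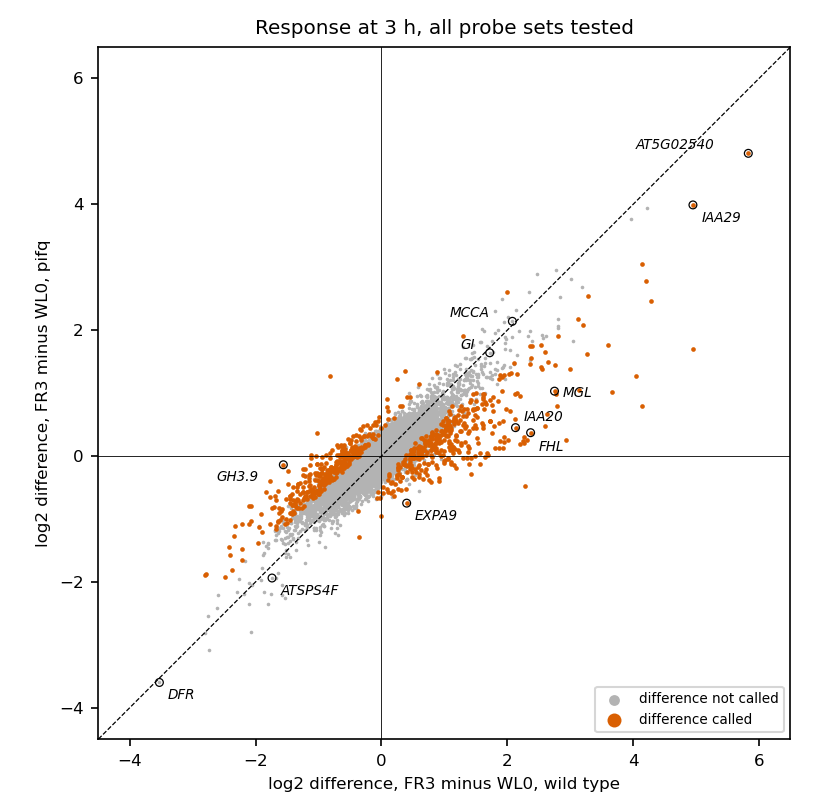
Log2 difference at 3 h (FR3 minus WL0) in pifq (vertical axis) against the wild type (horizontal axis) for the 22746 probe sets tested, orange where the difference between the lines was called and grey otherwise, with the dashed line marking equal change. DFR, MCCA, GI and ATSPS4F lie near the line, while FHL, IAA20 and MGL lie below it.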

How the data were processed

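The authors deposited log2 expression values made with RMA, as the submitters' processing notes record without a version or settings. RMA as commonly run corrects background, applies quantile normalisation and gives 1 value per probe set. Scanner files and scan dates were not used here. Each column was matched to its sample by name. Of 22810 probe sets 64 controls were left out and 22746 tested with no filter on level. GEO's platform annotation, with names updated through the RefSeq table, gave exactly 1 locus to 13436 (59.1%), several genes to 503 and no gene to 8730, and 1551 had a symbol.

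The model held 1 mean for each group over the 30 arrays and was fitted in limma 3.58.1 (lmFit, eBayes, two-sided) in R 4.3.3, with 20 residual and 9.44 prior degrees of freedom, and 7 comparisons were drawn from it. A call is an adjusted p under 0.05, and 2-fold means at least 1 on the log2 scale. On simulated data for FR3 against WL0 with the 22746 probe sets, the fit recovered 90% of 100 changes of 1.5-fold and 99% of 100 of 2-fold, with 8 unchanged probe sets called. The simulated noise was normal and independent between arrays and probe sets, around the same mean in all groups apart from these changes. Real arrays need not vary in that way, so these figures may not hold for them. In a check of pairing, same-numbered WL0 and FR3 arrays of pifq deviated together at r of 0.173, 0.0861 and 0.144, and WL0 and FR1 arrays at 0.284, 0.15 and 0.117. The fit has no block, and the block changed no count by over 1.5 times.

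EXO and the gene families were named after their values were seen. Other genes were named by rule: 1 probe set of highest mean per locus, the 20 largest rises and 20 largest falls with a symbol and groups not overlapping, the 8 largest differences from the wild type and 6 largest changes from 1 h to 3 h each way, 5 loci without a symbol each way, and up to 6 called and 2 uncalled members of each list. The plastid genes were added by locus, those of lowest and highest difference being named, and the families by the stem of the symbol. The rule gave 140 loci. Of 23 gene lists, 22 had a measured member, and most listed genes have no probe set named here, so counts cover the measured members only. The members, lists and tests were chosen with earlier results of these data known. Lists are described by counts and medians, with no set test. The alternatives were the arrays in the fit, a replicate block, array weights, leaving out the lowest 25% of levels, centring on array medians, a trended prior and leaving out each array.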

Additional observations from a re-analysis of the deposited data

Results flagged for a closer look

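For 29 genes named by rule the response to 3 h of far-red light differed between pifq and the wild type by the test of the difference itself (limma, adjusted over 22746 probe sets). In 24 of them the call held under all 18 alternatives tried. Values are the pifq response minus the wild-type response on the log2 scale, and no explanation was tested.

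Among genes that rose in the wild type, the difference was negative for FHL (-1.99), MGL (-1.72), LEA4-5 (-1.67), IAA20 (-1.67), LEA18 (-1.52), AtLEA4-1 (-1.47) and WRKY22 (-1.25). For the 3 LEA genes the pifq mean at WL0 (9.41 for LEA4-5, 9.29 for LEA18 and 9.43 for AtLEA4-1) was above the wild-type mean at FR3, which was 8.71 for LEA4-5 and 8.20 for LEA18. The difference was smaller for AT5G02540 (-1.02), IAA29 (-0.96), P1R3 (-0.95), BIM1 (-0.95), EXLA2 (-0.71), CCL (-0.64), GID1A (-0.48) and EIN3 (-0.48). EXPA9 (-1.16) was called higher in the wild type and lower in pifq.

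Among genes that fell in the wild type, the difference was positive for GH3.9 (1.42), TBL45 (1.03), BGLU40 (0.92), CLE41 (0.90), VTC4 (0.85), ATERDJ2B (0.78), UGT88A1 (0.70) and UGT76C2 (0.67). It was positive too for GSTU20 (0.47), XTH32 (0.46), SWEET1 (0.41) and CHLM (0.40), the last of which was called higher in pifq, a call lost without any of 5 single arrays, and lower in the wild type. The scpl44 difference was -0.93, with a called fall in pifq only (-1.29 ± 0.17, against -0.36 in the wild type), and scpl44 started at 6.32 ± 0.13 in pifq and 4.55 ± 0.10 in the wild type (SD, n = 3). EXO, named after its value was seen, also had a called difference (-0.66, adjusted p = 0.00154).

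The call ended under some alternatives for 5 of these genes: EIN3 (2 of 18), XTH32 (7), scpl44 (8), GSTU20 (11) and SWEET1 (12), with highest adjusted p of 0.0559, 0.111, 0.105, 0.164 and 0.176. The highest values came without FR3 replicate 3 of the wild type for EIN3, without pifq FR3 replicate 1 for scpl44 and without pifq FR3 replicate 3 for the other 3.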

How the results depend on the processing

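The count between FR3 and WL0 in pifq, 6797, stayed within 1.5 times of itself under each alternative but 1: with only probe sets of 1 locus tested it was 3470 of 13436. It was 5483 to 6323 with an array left out (lowest without FR3 replicate 1), 6575 with the 15 pifq arrays alone and 7897 with array weights. Array weights raised the count of differences between the lines from 727 to 1247 and that of FR1 against WL0 from 1325 to 2405. With only the arrays compared, FR24 against WL24 gave 1685 in place of 3377. Leaving out an array gave 544 to 755 for the difference between the lines, 2031 to 3155 for FR3 against FR1, 845 to 1042 for FR1 against WL0 and 2212 to 3213 for FR24 against WL24. It gave 9934 to 10798 for WL24 against WL0 and 7351 to 7563 for the wild type.

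With the replicate number as a block the counts were 6830 for FR3 against WL0, 734 for the difference between the lines, 3443 for FR3 against FR1, 1339 for FR1 against WL0, 3423 for FR24 against WL24, 11211 for WL24 against WL0 and 8261 for the wild type, so the block moved none by over 1.5 times. In its deviations from the group mean, each pifq WL0 array matched best the FR3 array of its own number, at r of 0.173, 0.0861 and 0.144. This weak match is a hint from the data and not from the design.

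Of the 101 named genes called between FR3 and WL0, 87 kept the call with any 1 array left out and 98 under the other alternatives, and 0 changed direction while called. Of 39 not called, 4 gained a call with an array left out and 6 under other alternatives. The planned motif shares in promoters were not run, as no promoter sequence was at hand. RMA values, scaled alike across arrays, could not show a change of total RNA, and dim probe sets were seldom called.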

Other observations

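Gene families grouped by the stem of their symbol, with at least 8 loci and chosen after the table was seen, held further changes. Of 8 ATG genes, which drive autophagy, 5 rose and 0 fell in pifq after 3 h, with a median difference of 0.39 and a largest of 0.92, where 14.6% of all probe sets rose. In the wild type their median was 0.77, and 0 of the 8 differences between the lines were called. Of 15 TET genes, for tetraspanin membrane proteins, 4 rose and 0 fell.

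Other families held more falls than rises, with medians near 0. Of 47 UGT glycosyltransferase genes, 13 fell and 4 rose, from -1.56 to 0.39 with a median of -0.05, where 15.3% of all probe sets fell. Of 29 serine carboxypeptidase-like (SCPL) genes 9 fell and 1 rose (median -0.09), and the deepest fall was that of scpl35 (-1.32 ± 0.12). Of 20 beta-glucosidase (BGLU) genes 6 fell, 2 rose and the median was -0.02.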
